A study of Mus musculus with 16 samples.

Results

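Mesenteric visceral adipose tissue (VAT) was compared with inguinal subcutaneous adipose tissue (SAT) of the same lean mice, gene by gene. The comparison used the 8 libraries of lean mice out of 16 in the study, chosen by their labels: SAT and VAT of lean mice 1 to 4, each mouse giving 1 library per tissue. The mice were male wild-type C57BL/6J animals on a normal laboratory diet, which began at 10 weeks of age and lasted 12 to 14 months. The other 8 libraries came from SAT and VAT of 4 male mice of the same strain given, for as long, a diet of 42% fat by energy with 0.2% cholesterol, and they are used below only where a depot difference is set beside that of obese mice. The left and right inguinal pads of a mouse were pooled, VAT was cut from the intact bowel, and visible vessels were dissected away from the fat of both depots, but each library is still whole tissue with every cell type it holds. In such bulk samples fewer cells of a type and less RNA per cell cannot be told apart.

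Inguinal fat lies under the skin of the hind body wall, and mesenteric fat hangs in the double sheet of peritoneum that carries vessels, lymphatics and nerves to the gut. The peritoneal face is lined by mesothelium, an epithelial-like sheet of mesodermal origin, and mesenteric fat also holds lymphoid clusters and draining lymph vessels. Fat depots are known to keep a record of where in the body they formed, in the form of Hox genes and other developmental transcription factors that stay active in adult adipocyte precursors and stromal cells. They are also known to differ in leptin output, in lipid synthesis and lipolysis, and in their immune cells.

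The unit of measurement was the raw count of reads per RefSeq transcript, and each transcript is 1 entry. Total counts ranged from 4604460 to 11897722 in lean SAT and from 1256082 to 15802634 in lean VAT. The library of VAT replicate 1 had the fewest, so that 1 count there stands for 0.796 CPM, the count scaled to the library total, against 0.0633 CPM in VAT replicate 2. Its log2 CPM correlated with the other VAT libraries at r of 0.928 to 0.931 across entries, where those 3 correlated among themselves at 0.979 to 0.981. Values below are CPM scaled with TMM factors, which correct for library composition, and are listed in the order of mice 1 to 4. Adiponectin (Adipoq), the adipocyte hormone, had 5467 to 6662 CPM in SAT and 5050 to 7476 CPM in VAT, a log2 fold change of 0.08 (SE 0.09, adjusted p = 0.622), so that both sets of libraries carry a strong adipocyte signal. Of the 19 tested genes on a list of 23 for adipocyte identity, 1 was higher in VAT (Pck1) and 3 were higher in SAT (Lpl, Fabp4 and Tshr). The p-values rest on the spread over 4 mice, and the counting intervals and floors given below cover counting error only.

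The test was edgeR's quasi-likelihood F-test of VAT over SAT with the mouse as a block, over the 11737 entries that exceeded 1 CPM in 3 or more of the 8 lean libraries, with Benjamini-Hochberg adjusted p. A positive log2 fold change means higher in VAT. At an adjusted p below 0.05 and a log2 fold change beyond 1.5, 422 entries (3.6%) were higher in VAT and 198 (1.69%) were higher in SAT. At any size of change 960 entries (8.18%) were higher in VAT and 860 (7.33%) were higher in SAT. With a log2 fold change beyond 4, 87 VAT entries and 14 SAT entries were called. The filter fixed the direction of entries that exceeded 1 CPM in 1 tissue alone, which were 183 of the 422 and 65 of the 198, and 74 of the 87 and 10 of the 14. Among the 11262 entries above 1 CPM in at least 1 library of both tissues, 777 were higher in VAT and 795 in SAT at any size, 239 and 133 beyond 1.5, and 13 and 4 beyond 4. The median log2 fold change over all entries was 0.00336. The numbers at any size moved most without mouse 2 (520 and 500) and without mouse 3 (539 and 389), and they were 959 and 821 without mouse 1 and 848 and 741 without mouse 4. The 4 VAT libraries all lay above the 4 SAT libraries in 374 of the 422 entries, and the reverse held in 180 of the 198, against 9.25% and 9.53% of all entries tested. In 24 of the VAT entries, and in 1 SAT entry, no library of the other tissue had a count. The called VAT entries belonged to 390 named genes and the SAT entries to 173.

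**Figure D1:**
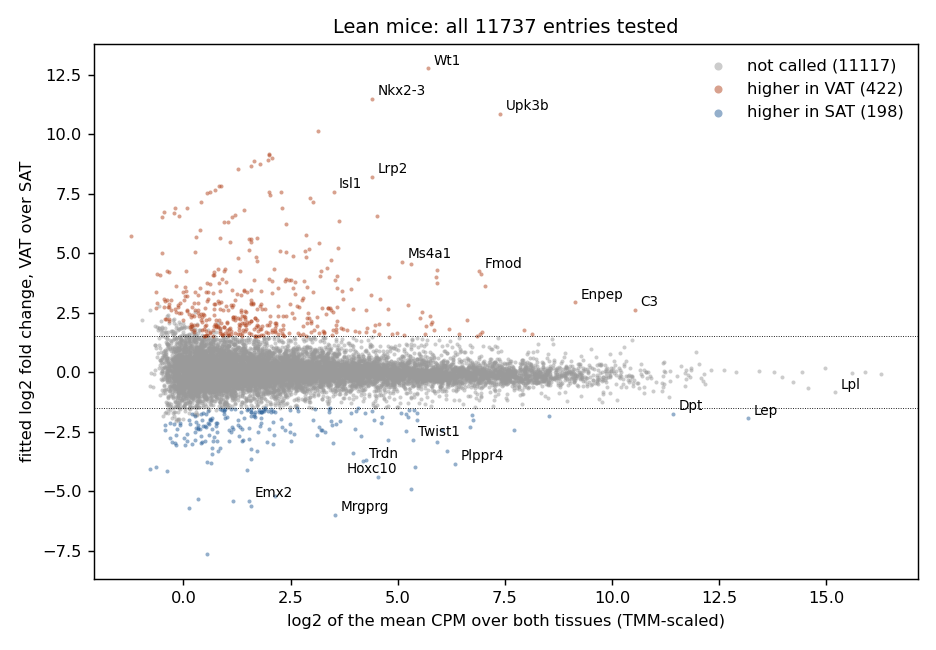
Each point is 1 of 11737 entries, with the log2 of its mean CPM over both tissues on the horizontal axis and its fitted log2 fold change (VAT over SAT) on the vertical axis. The 422 entries called higher in VAT reach much larger log2 values than the 198 called higher in SAT, and the dotted lines mark the limit of 1.5. For entries without a count in 1 tissue the fitted value is no bound.

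Among the genes with the largest differences on the VAT side were developmental transcription factors and genes of mesothelium. Wt1, the transcription factor of mesothelium and of the developing kidney and gonad (chr2:104956625-105003961, GRCm39), had no count in the 4 SAT libraries and 121, 129, 58.0 and 111 CPM in VAT. Set against a floor of 3 counts over the SAT libraries, it was at least 1156-fold higher in VAT (adjusted p = 1.66e-10). Nkx2-3, a homeobox factor of gut and spleen mesoderm (chr19:43600764-43604331), also had no count in SAT, and its VAT values were 38.8, 48.3, 42.7 and 38.2 CPM, at least 463-fold higher. Tcf21, a factor of visceral mesoderm and its fibroblasts (chr10:22692803-22696073), had none in SAT and 9.52, 6.84, 7.14 and 8.40 CPM in VAT, at least 87.9-fold higher. These genes were seen in every VAT library and in no SAT library, so the filter fixed their direction.

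Upk3b, a uroplakin that mesothelial cells carry (chr5:136067350-136075342), had 0, 0.292, 0.297 and 0 CPM in SAT and 314, 447, 174 and 403 CPM in VAT (log2 fold change 10.86, SE 0.28, adjusted p = 1.32e-12), the smallest adjusted p of all. Lrp2, the endocytic receptor megalin (chr2:69254682-69416409), had 0.258, 0, 0.0992 and 0 CPM in SAT against 38.8, 57.5, 24.99 and 46.6 CPM in VAT (log2 fold change 8.21, SE 0.35, adjusted p = 3.91e-10). Isl1, a LIM-homeodomain factor (chr13:116434817-116446235), had 3 counts in all SAT libraries and 11.6, 32.6, 17.1 and 29.1 CPM in VAT, a pooled ratio of 297-fold (95% counting interval 101 to 1442). The lowest VAT value of Wt1, Upk3b and Lrp2 was in replicate 3, and that of Isl1 in replicate 1. Krt8, an epithelial keratin, and Upk1b, another uroplakin, were not counted in SAT and had 7.25 to 29.3 and 5.13 to 11.6 CPM in VAT, at least 196-fold and 92.2-fold higher. The same held for Msln (mesothelin, 4.02 to 12.4 CPM, at least 87.2-fold), Il22ra1 (a subunit of the interleukin-22 receptor, 3.23 to 10.6 CPM, at least 76.6-fold), Mmrn1 (multimerin of lymphatic endothelium and platelets, 2.53 to 8.03 CPM, at least 69.5-fold) and the noncoding gene Gm20467 (6.28 to 12.2 CPM, at least 87.9-fold). No SAT library exceeded 1 CPM for any gene of this paragraph, Upk3b, Lrp2 and Isl1 included, so the filter fixed their direction.

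Fbln1, the matrix protein fibulin, ranked next by adjusted p, with 3.18, 2.78, 2.68 and 4.87 CPM in SAT and 90.4, 66.5, 64.4 and 80.5 CPM in VAT (log2 fold change 4.52, SE 0.17, adjusted p = 1.66e-10). Enpep, the aminopeptidase that trims angiotensin II, was the most abundant of them. It had 120.4, 144, 120 and 139 CPM in SAT and 920.5, 1045, 1167 and 868 CPM in VAT (log2 fold change 2.93, SE 0.11, adjusted p = 1.66e-10), and both sets of values were tight.

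Among the leading genes on the SAT side were developmental factors as well. Emx2, a homeobox factor of limb girdle, forebrain and urogenital development (chr19:59446804-59453789), had 3.18, 3.36, 3.67 and 12.4 CPM in SAT and 0, 0.0622, 0.223 and 0.115 CPM in VAT (log2 fold change -5.40, SE 0.55, adjusted p = 4.55e-06). Hoxc10, a posterior Hox gene (chr15:102875134-102880330), had 101, 62.9, 71.4 and 83.4 CPM in SAT and 5.44, 11.6, 3.57 and 0.46 CPM in VAT (log2 fold change -4.01, SE 0.42, adjusted p = 6.67e-06). Both are named by the rule for the largest changes, which takes only genes whose tissues do not overlap. The VAT values of Hoxc10 differed by several times between mice.

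Plppr4, a membrane protein of the lipid phosphate phosphatase-related family known from synapses (chr3:117112788-117154525), had 159.8, 104, 177 and 167 CPM in SAT and 12.2, 9.70, 10.6 and 9.32 CPM in VAT (log2 fold change -3.84, SE 0.15, adjusted p = 1.66e-10), the smallest adjusted p on the SAT side. Mrgprg, an orphan receptor of the Mas-related family, had 14.8, 14.2, 14.0 and 49.1 CPM in SAT and 0, 0.435, 0.112 and 0.46 CPM in VAT (log2 fold change -6.00, SE 0.34, adjusted p = 9.91e-09). SAT replicate 4 stood far above the other SAT libraries for Mrgprg. All 4 were above VAT, as the rule for the largest changes requires. No VAT library exceeded 1 CPM for Mrgprg, so the filter fixed its direction. Twist1, a helix-loop-helix factor of mesenchyme, had 65.6, 59.7, 79.9 and 82.1 CPM in SAT and 7.48, 7.65, 11.1 and 13.9 CPM in VAT (log2 fold change -2.83, SE 0.15, adjusted p = 3.43e-09). Cyp2f2, a cytochrome P450 best known from airway club cells, had 55.1, 134, 191 and 129.9 CPM in SAT and 7.48, 10.4, 26.7 and 10.1 CPM in VAT (log2 fold change -3.33, SE 0.17, adjusted p = 2.39e-09). Alb, the serum albumin gene, had 80.8 to 238 CPM in SAT and 18.2 to 52.6 CPM in VAT (log2 fold change -2.29, SE 0.12, adjusted p = 2.74e-09).

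Akr1c18, the progesterone-inactivating 20-alpha-hydroxysteroid dehydrogenase, had 3.87 to 13.7 CPM in SAT and 0 to 0.435 CPM in VAT (log2 fold change -5.20). Tcerg1l, a paralog of a transcription elongation regulator, had 3.17 to 9.79 CPM in SAT and 3 counts in all of VAT, a pooled ratio of 73.4-fold (95% counting interval 24.8 to 359). No VAT library exceeded 1 CPM for Akr1c18 or Tcerg1l, so the filter fixed their direction. Myl4, the atrial and embryonic myosin light chain, had 4.204 to 6.53 CPM in SAT and 0 to 1.36 CPM in VAT for 1 of its 8 transcripts (log2 fold change -4.11), and with counts summed over the gene the log2 fold change was -1.70. The noncoding entries in the set were Gm39741 at 27.6 to 66.5 against 0 to 2.76 CPM, 9030619P08Rik at 22.1 to 48.5 against 1.36 to 3.45 CPM, and Gm52902 at 3.32 to 8.92 against 0 to 1.31 CPM.

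**Figure D2:**
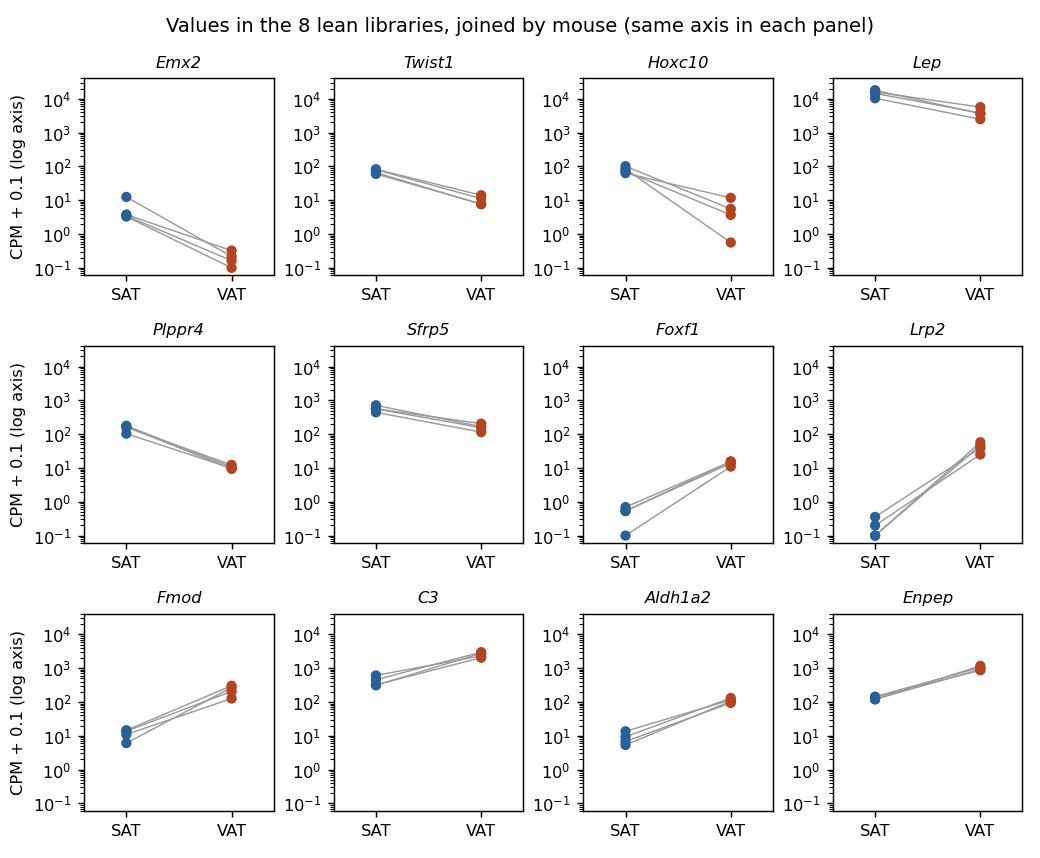
Each panel shows 1 gene, with its CPM plus 0.1 in the 4 SAT and 4 VAT libraries of lean mice on a log axis and a line joining the libraries of 1 mouse. In all 12 panels the tissues do not overlap, with Emx2, Twist1, Hoxc10, Lep, Plppr4 and Sfrp5 above in SAT and Foxf1, Lrp2, Fmod, C3, Aldh1a2 and Enpep above in VAT. For Emx2, Hoxc10, Plppr4 and Lrp2 the rule for the largest changes takes only genes without overlap. The filter fixed the direction of Emx2, Foxf1 and Lrp2.

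Hox genes, which encode position along the body axis, moved in both directions. Of 39 Hox genes 23 passed the filter, and 5 were higher in VAT and 4 were higher in SAT at an adjusted p below 0.05. Among all 9334 named genes tested, 9.24% were higher in VAT and 8.07% higher in SAT by that rule (3.96% and 1.68% beyond 1.5, and 9.88% and 10.5% without overlap), with a median log2 fold change of -0.00314 against 0.20 for the Hox genes. The 5 that were higher in VAT were Hoxb3, Hoxb4, Hoxb5, Hoxb6 and Hoxb7, and the 4 that were higher in SAT were Hoxa9, Hoxa10, Hoxc9 and Hoxc10. A gene that passed the filter through 1 tissue alone had to be higher there, so nothing can be read from its direction. Among the 862 genes higher in VAT 158 exceeded 1 CPM in no SAT library, and among the 753 higher in SAT 53 exceeded it in no VAT library. This was so for Hoxb3 and Hoxb7, and of the 21 Hox genes above 1 CPM in at least 1 library of both tissues 3 were higher in VAT and 4 in SAT. Hoxb4 had 12.2, 15.7, 7.83 and 17.9 CPM in SAT and 35.4, 24.9, 21.3 and 28.0 CPM in VAT (log2 fold change 1.05, SE 0.19, adjusted p = 0.00116). Hoxc9 had 8.16, 6.14, 5.16 and 4.87 CPM in SAT and 0, 1.18, 0.335 and 0.23 CPM in VAT (log2 fold change -3.32, SE 0.44, adjusted p = 6.34e-05), and Hoxa10 had 5.24, 5.12, 4.96 and 5.31 CPM in SAT and 0, 1.31, 0.892 and 0.115 CPM in VAT (log2 fold change -2.82, SE 0.47, adjusted p = 0.000578). In each of these 3 genes the tissues did not overlap.

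Of the 15 tested Hox genes with paralog numbers 3 to 7, 10 had a log2 fold change above 0 and none was higher in SAT by the test, and the median was 0.44. Of the 13 among them above 1 CPM in at least 1 library of both tissues 3 were higher in VAT. Of the 6 with numbers 9 and 10, 4 were higher in SAT and none in VAT, and the median was -2.23. Hoxa11 and Hoxa13 did not pass the filter, with 21 and 3 counts over the SAT libraries and 57 and 20 over the VAT libraries. Hoxb9 and Hoxd9 had values of 0.20 and 0.66 and did not pass. This split by number was drawn after the values were seen. The log2 fold change was 0.97 for Hoxb5, 1.81 for Hoxb6, 2.10 for Hoxb7, 1.56 for Hoxb3 and -1.63 for Hoxa9 (adjusted p = 0.0451). Of the 13 alternatives tried, Hoxa9 did not pass in 5, Hoxb7 in 2 and Hoxb5 in 1, while Hoxb3 did not pass in 2 and fell below the filter in 4 others. Without mouse 2 the number of Hox genes higher in VAT was 3, and without mouse 3 it was 2, Hoxb3 being untested in both. Hoxa5, a gene often cited for visceral fat, had 12.5, 12.7, 12.99 and 7.74 CPM in SAT and 11.6, 16.3, 21.3 and 24.2 CPM in VAT, which overlapped (log2 fold change 0.68, SE 0.23, adjusted p = 0.0574), and Hoxc8 overlapped as well (log2 fold change -0.74, SE 0.44, adjusted p = 0.304). That was 1 of 2 transcripts of Hoxc8. With counts summed over the gene, Hoxc8 passed as higher in SAT (log2 fold change -1.125, adjusted p = 0.0267 by the same test).

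**Figure D3:**
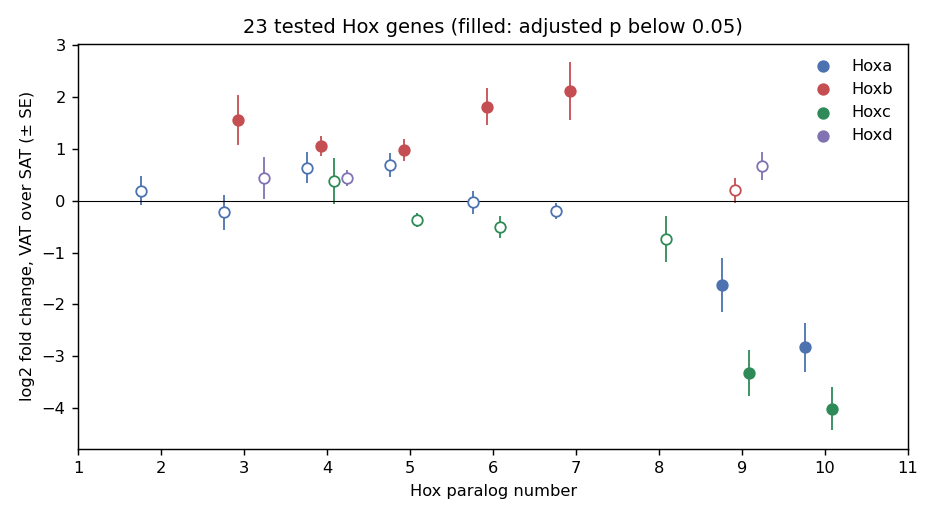
The 23 tested Hox genes are placed by paralog number on the horizontal axis and by log2 fold change (VAT over SAT, with SE) on the vertical axis, coloured by cluster and filled where the adjusted p is below 0.05. The filled Hoxb points lie between 0.97 and 2.10, and the filled Hoxa and Hoxc points at numbers 9 and 10 lie between -4.01 and -1.63.

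Of 60 other developmental transcription factors 21 passed the filter, and 10 were higher in VAT and 6 higher in SAT. The filter fixed the direction of 7 of the 10 (Foxf1, Gata5, Hand2, Isl1, Nkx2-3, Tcf21 and Wt1) and of 2 of the 6 (Emx2 and En1). Of the 12 members above 1 CPM in at least 1 library of both tissues 3 were higher in VAT and 4 in SAT. Beside those named above, Foxf1, a forkhead factor of gut mesoderm, had 0.43, 0.439, 0.595 and 0 CPM in SAT and 15.6, 13.8, 15.3 and 10.9 CPM in VAT (log2 fold change 5.08, SE 0.35, adjusted p = 7.42e-08), without overlap. Hand2, a factor of heart, limb and enteric mesoderm, had 0 to 0.595 CPM in SAT and 5.44 to 6.78 CPM in VAT (log2 fold change 3.87). Osr1, a factor of kidney and lateral mesoderm (1.20 and 8.03 CPM on average, log2 fold change 2.77), and the forkhead factor Foxf2 (0.872 and 3.46 CPM, 1.73) were also higher in VAT, Foxf2 not without mouse 1 or mouse 2. Gata5 had no count in SAT nor in VAT replicate 1 and 0 to 4.72 CPM over VAT, at least 29.2-fold higher by the group floor.

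Higher in SAT with Emx2 and Twist1 were Tbx18, a T-box factor of mesenchyme and mural cells, with 14.5, 19.9, 13.1 and 19.5 CPM in SAT and 2.72, 3.98, 2.12 and 2.99 CPM in VAT (log2 fold change -2.51, SE 0.22, adjusted p = 9.75e-07), and Irx5 at 1.99 to 3.09 against 0 to 1.12 CPM (log2 fold change -2.66). En1, a homeobox factor of ventral skin and limb, had 1.03 to 4.204 CPM in SAT and 1 count in VAT, a pooled ratio of 64.9-fold (95% counting interval 11.2 to 2605). Tbx15, widely used as a subcutaneous marker, had 30 counts over the SAT libraries and 0 over VAT, too few to be tested. Shox2 and Gata4 had no count in either tissue and Bnc1 had 1 count, in VAT. Reads shared by transcripts of a gene may be missing, so such low counts do not show that a gene was silent.

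Several noncoding genes beside these factors were called in the same direction. Distances were taken from GENCODE positions on GRCm39. Gm20467 overlaps Nkx2-3, Wt1os overlaps Wt1, Hand2os1 overlaps Hand2, and Fendrr lies 1225 bases from Foxf1. No SAT library exceeded 1 CPM for either gene of these pairs, so the filter fixed both directions and their agreement. On the SAT side Crnde overlaps Irx5, Gm52902 overlaps Hoxa10 and Gm36878 overlaps Hoxc9. Wt1os rose to 5.94 CPM in VAT from 0.0678 CPM in SAT, and Fendrr to 3.07 CPM from 0. Of 85 called lncRNA genes with a position, 17 had a coding gene called the same way within 100 kb, and of 868 that were not called 62 (7.1%) had a coding gene called in either direction that near. The 17 include pairs whose direction the filter fixed, so nothing is read from that number. The strand setting of the authors' counting is not stated, so reads of a gene and of its antisense partner cannot be told apart. These genes were chosen after their values were seen.

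Of 28 mesothelial markers 20 passed the filter, and 17 were higher in VAT and none in SAT, with a median log2 fold change of 5.82. For 12 of the 17, Wt1, Msln, Upk1b, Upk3b and the keratins Krt7, Krt8, Krt18 and Krt19 among them, no SAT library exceeded 1 CPM, so that the filter fixed their direction and nothing is read from the share called or from that median. Of the 7 members above 1 CPM in at least 1 library of both tissues 5 were higher in VAT, against 7.85% of all genes so placed. The summed level of the whole list was 543 to 987 CPM in the SAT libraries and 2691 to 4263 CPM in the VAT libraries, of which C3 alone held 61.7% and 70.0% on average. Without C3 the sums were 221 to 377 CPM and 647 to 1285 CPM. Krt19 had 3 counts in SAT and 7.59 to 21.1 CPM in VAT, a pooled ratio of 166-fold (95% counting interval 56.4 to 806). Rspo1, a secreted booster of Wnt signaling, had 1 count in SAT and 3.90 to 12.9 CPM in VAT, a pooled ratio of 224-fold (95% counting interval 39.8 to 8870). Crb2, an apical polarity protein, had 1 count in SAT and 4.76 to 13.3 CPM in VAT, a pooled ratio of 377-fold (95% counting interval 67.2 to 14920). The list is not specific at its broad end, since C3, Dpp4 and Igfbp6 are also made by fibroblasts. Wt1, Msln, Upk1b and Krt8 had no count in SAT. The part of mesothelium in the other VAT differences was not tested.

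Leptin (Lep), the satiety hormone of adipocytes, was the most abundant gene called on the SAT side. It had 17941, 10388, 14381 and 15909 CPM in SAT and 3623, 2488, 3806 and 5674 CPM in VAT (log2 fold change -1.94, SE 0.12, adjusted p = 1.64e-08), and every SAT value was above every VAT value. Sfrp5, a secreted Wnt inhibitor made by adipocytes, had 716, 444, 561 and 569 CPM in SAT and 168, 115, 156 and 205 CPM in VAT (log2 fold change -1.83, SE 0.11, adjusted p = 1.76e-08). Haptoglobin (Hp) was lower in VAT by a smaller step, 785 to 1846 against 352 to 723 CPM (log2 fold change -1.11). In the opposite direction, Lcn2 (lipocalin) had 1.09 to 3.54 CPM in SAT and 8.16 to 16.3 CPM in VAT (log2 fold change 2.46), and Agt, the angiotensin precursor, had 3.08 to 8.68 and 9.71 to 19.7 CPM (log2 fold change 1.37). Of 30 tested adipokines and other secreted factors on a list of 41, 4 were higher in VAT and 7 in SAT. Resistin (Retn) had 352 to 462 CPM in SAT and 307 to 445 CPM in VAT, and Rbp4 had 7.82 to 19.0 and 7.28 to 36.7 CPM. Neither passed the test, with adjusted p = 0.313 and 0.714.

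Of 30 listed genes of fatty acid and triglyceride synthesis 24 were tested, 12 were higher in VAT, none was higher in SAT and 12 did not pass, and the median log2 fold change was 0.59. Acly, which makes cytosolic acetyl-CoA from citrate, had 10.7, 13.2, 7.34 and 3.98 CPM in SAT and 78.2, 28.4, 27.4 and 19.4 CPM in VAT (log2 fold change 2.00, SE 0.24, adjusted p = 2.14e-05). Fasn, the fatty acid synthase, had 87.9, 106, 72.6 and 58.2 CPM in SAT and 190.4, 191, 164 and 142 CPM in VAT (log2 fold change 1.10, SE 0.11, adjusted p = 3.71e-06). Elovl6, the elongase of palmitate, had 107, 161, 106 and 81.0 CPM in SAT and 443, 439, 371 and 265 CPM in VAT (log2 fold change 1.75, SE 0.11, adjusted p = 2.62e-08). For all of them the tissues did not overlap, although VAT replicate 1 was far above the other VAT libraries for Acly.

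Acaca, acetyl-CoA carboxylase, had 0.258, 1.90, 0.0992 and 0 CPM in SAT and 21.1, 18.3, 9.93 and 6.33 CPM in VAT for 1 of its 11 transcripts (log2 fold change 4.82, SE 0.46, adjusted p = 2.69e-06), and 4.31 with counts summed over the gene. Without mouse 2 the value for that transcript was 6.45. Acss2, which activates acetate, rose from 216 ± 35.6 to 558 ± 58.4 CPM (SD, n = 4) and a log2 fold change of 1.38. Thrsp, a lipogenic regulator of adipocytes and liver, rose from 805 ± 174 to 2044 ± 532 CPM (1.34). Me1, the NADPH-producing malic enzyme, rose from 47.7 ± 6.00 to 89.3 ± 21.1 CPM (0.87). Mogat2, a monoacylglycerol acyltransferase, had 1.91 and 6.92 CPM on average (1.87), with overlap. The others that passed were Slc25a1, Elovl5, Scd2 and Pck1, with log2 fold changes from 0.52 to 0.83. The summed level of the list overlapped between tissues (46887 to 162231 CPM in SAT, 68473 to 107130 CPM in VAT). Scd1 held 86.3% of the SAT sum and 79.6% of the VAT sum on average, and without it the sums were 12698 to 14450 CPM and 16667 to 20556 CPM, which did not overlap. With size factors by the RLE method, with legacy=FALSE, with limma voom, with counts summed per gene and without mouse 1, 1 member was lower in VAT.

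The start-site regions of these genes were searched for 3 short motifs in RefSeq promoter sequence (GRCm38.p6, 250 bases before to 50 after the start, 32851 promoters). Of the 12 genes higher in VAT 10 have an entry, and 6 of these 10 hold CCAAT on either strand (Acly, Acss2, Slc25a1, Fasn, Elovl5 and Thrsp), as do 5 of the 8 entries of tested members that did not pass and 37.4% of all promoters. CACGTG occurs in 2 of the 10 and in 7.2% of all, and TCACCCCAC in none of the 10 and in 0.551% of all. Fasn and Thrsp are printed because both hold CCAAT in reverse and then forward orientation with 23 and 22 bases between. An ATTGG followed by CCAAT with 20 to 25 bases between was found in 2 of 18 promoters of tested list members and in 0.441% of all, a spacing chosen after it was seen. The 120 bases before the start are given 5′ to 3′, with CCAAT and its reverse ATTGG in capitals, for Fasn at chr11:120824548-120824667 and Thrsp at chr7:97417551-97417670, both on the minus strand. In Fasn the forward copy and a second reverse copy share bases.
Fasn: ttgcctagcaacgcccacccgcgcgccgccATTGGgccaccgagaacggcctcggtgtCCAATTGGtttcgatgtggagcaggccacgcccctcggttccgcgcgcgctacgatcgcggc
Thrsp: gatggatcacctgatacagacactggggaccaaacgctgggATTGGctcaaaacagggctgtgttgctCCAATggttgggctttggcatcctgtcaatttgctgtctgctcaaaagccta
The matches describe these letters only.

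Genes of fatty acid uptake differed in both directions. Of 14 tested on a list of 21, 5 were higher in SAT and 2 in VAT, with a median log2 fold change of -0.20. Lpl, the lipase that frees fatty acids from lipoproteins, had 48756, 46370, 49690 and 49564 CPM in SAT and 22311, 29338, 27750 and 29878 CPM in VAT (log2 fold change -0.84, SE 0.09, adjusted p = 1.26e-05). Gpihbp1, which holds that lipase on capillaries, had 151 ± 38.7 and 77.8 ± 22.99 CPM (SD, n = 4; log2 fold change -0.92). Fabp4, the adipocyte fatty acid-binding protein, had 29698 ± 5721 and 18770 ± 4551 CPM (log2 fold change -0.68). In all 3 the tissues did not overlap, and none reached the limit of 1.5. The 2 higher in VAT, Slc27a4 and Cav1, had log2 fold changes of 0.35 and 0.40.

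Of 23 tested genes of lipolysis and its receptors on a list of 27, 4 were higher in VAT and 1, Ffar2, in SAT. Adrb3, the beta-adrenergic receptor of adipocytes, had 47.9, 103, 60.4 and 34.1 CPM in SAT and 119.7, 224, 227 and 179 CPM in VAT (log2 fold change 1.67, SE 0.17, adjusted p = 4.19e-06), without overlap. Npr2, the receptor of C-type natriuretic peptide, rose from 4.33 to 11.7 CPM (log2 fold change 1.28), with VAT replicate 1 at more than any other library, and it was not called without mouse 3, without which 1 gene of the list was higher in VAT. Adra2a, the antilipolytic receptor, had 3.18, 1.17, 1.09 and 1.33 CPM in SAT and 3.40, 3.92, 2.45 and 1.73 CPM in VAT and did not pass (log2 fold change 0.92, SE 0.40, adjusted p = 0.137). Among 14 tested thermogenic and beige fat genes on a list of 30, 2 were higher in each tissue. Otop1, a proton channel of brown and beige fat, had 29.8, 27.5, 25.6 and 42.0 CPM in SAT and 12.9, 6.97, 6.69 and 18.1 CPM in VAT (log2 fold change -1.61, SE 0.19, adjusted p = 1.64e-05). Ucp1, the uncoupling protein, had 7 counts over SAT and 16 over VAT and was not tested.

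Of 18 tested genes of insulin and insulin-like growth factor signaling on a list of 29, 4 were higher in VAT and 5 in SAT. Irs1, the insulin receptor substrate, had 261, 357, 363 and 273 CPM in SAT and 222, 210.2, 239 and 153 CPM in VAT (log2 fold change -0.62, SE 0.11, adjusted p = 0.000993). The binding proteins diverged. Igfbp5 had 3487 ± 546 and 1677 ± 312 CPM (log2 fold change -1.06), Igfbp6 had 45.3, 45.5, 31.2 and 127 and 312, 153, 86.3 and 174 CPM (1.60), and Igfbp2 had no count in SAT and 12.2, 3.86, 0.335 and 2.99 CPM in VAT, at least 53.5-fold higher, a direction that the filter fixed. SAT replicate 4 lay above 1 VAT library for Igfbp6, while Igfbp2 ranged from 0.335 to 12.2 CPM within VAT. The fold given for Igfbp2 uses the plain mean of the VAT libraries. It rests mostly on VAT replicate 1, the shallowest library, and would be smaller without it. Pparg, the master regulator of adipocytes, had few counts on the transcript tested (2.19 to 3.61 and 0 to 3.11 CPM) and did not pass (log2 fold change -0.98, SE 0.43, adjusted p = 0.144), nor did Igf1 (log2 fold change -1.36, SE 0.45, adjusted p = 0.0562).

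Members of the Wnt, BMP and retinoid lists were called in both directions. Over all genes tested 9.24% were higher in VAT and 8.07% higher in SAT. The shares were 23.1% and 7.69% for Wnt, 18.2% and 12.1% for TGF-beta, activin and BMP, and 22.2% and 5.56% for retinoid genes. The SAT shares of the Wnt and retinoid lists were no larger than that of all genes, so nothing is read from them. Of 26 tested Wnt genes on a list of 49, 6 were higher in VAT and 2 in SAT. The filter fixed the direction of 2 of the 6, Wnt4 and Rspo1, and of the 23 above 1 CPM in at least 1 library of both tissues 4 were higher in VAT and 2 in SAT. Wnt2b, a ligand of visceral mesoderm, had 8.25, 6.29, 4.56 and 2.65 CPM in SAT and 126, 163, 56.1 and 116 CPM in VAT (log2 fold change 4.30, SE 0.22, adjusted p = 2.39e-09). Wnt4 had 2 counts in SAT and 8.16, 11.5, 5.80 and 13.5 CPM in VAT, a pooled ratio of 172-fold (95% counting interval 47.3 to 1425). Rspo3, an R-spondin of stroma, had 2.58, 1.32, 0.793 and 1.99 CPM in SAT and 6.80, 8.89, 16.6 and 11.1 CPM in VAT (log2 fold change 2.78, SE 0.37, adjusted p = 7.91e-05), and Ror2, a receptor for Wnt5a, had 1.31 and 5.21 CPM on average (log2 fold change 2.19). Both genes higher in SAT encode secreted inhibitors: Sfrp5, above, and Wif1, at 4.30, 4.24, 3.67 and 2.88 CPM in SAT and 0.68, 0.684, 1.12 and 0.345 CPM in VAT (log2 fold change -2.37, SE 0.41, adjusted p = 0.000788). Sfrp2 had 25.8 to 50.9 and 32.5 to 63.9 CPM, which overlapped (log2 fold change 0.40, SE 0.16, adjusted p = 0.111).

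Of 33 tested genes of TGF-beta, activin and BMP signaling on a list of 50, 6 were higher in VAT and 4 in SAT. Bmp4, a ligand that commits precursors to fat, had 1.03, 1.46, 0.595 and 0.221 CPM in SAT and 4.76, 5.29, 3.01 and 4.14 CPM in VAT (log2 fold change 2.35, SE 0.41, adjusted p = 0.000835), and Bmp2 went the other way, from 32.1, 29.5, 33.8 and 27.4 to 21.1, 15.6, 13.5 and 15.4 CPM (log2 fold change -0.95, SE 0.16, adjusted p = 0.000783). Neither overlapped. Gdf6 had 0.938 and 4.05 CPM on average (log2 fold change 1.97), with overlap, and was not called without mouse 2. Inhbb, an activin subunit of adipocytes, was lower in VAT by a small step (log2 fold change -0.44, adjusted p = 0.0191), which was not called in 5 of the 13 alternatives.

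Of 18 tested retinoid genes on a list of 28, 4 were higher in VAT and 1, Aldh1a7, in SAT. Aldh1a2, which makes retinoic acid and is strong in mesothelium, had 6.70, 9.21, 5.26 and 13.5 CPM in SAT and 93.1, 131, 106 and 115 CPM in VAT (log2 fold change 3.76, SE 0.18, adjusted p = 1.42e-09). Dhrs9, a retinol dehydrogenase, had 1.29, 1.61, 0.496 and 2.65 CPM in SAT and 14.3, 21.8, 7.14 and 15.99 CPM in VAT (log2 fold change 3.37, SE 0.28, adjusted p = 5.56e-07). Cyp26b1, which degrades retinoic acid, had 0.737 and 4.35 CPM (log2 fold change 2.61). Aldh1a1, the form often tied to visceral fat, had 2.34 to 4.96 and 1.90 to 3.91 CPM and did not pass (log2 fold change -0.10, SE 0.39, adjusted p = 0.902), and counts summed over its 5 transcripts gave a log2 fold change of 0.70.

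Of 15 tested genes of steroid metabolism and response on a list of 30, 3 were higher in VAT and 1, Akr1c18, in SAT, where no VAT library exceeded 1 CPM and the filter fixed its direction. Nr3c1, the glucocorticoid receptor, and Hsd11b1, which regenerates active glucocorticoid, were not tested, with 6 and 44 counts over SAT and 8 and 32 over VAT. Reads shared by transcripts of a gene may be missing, so these counts do not show that either gene was near silent. Of 8 tested genes of the renin-angiotensin system on a list of 15, Enpep, Agt and Lnpep were higher in VAT and Cma1, mast cell chymase, was higher in SAT (19.99 and 9.13 CPM). The summed level of 22 circadian clock genes was highest in replicate 3 in both SAT (279 CPM) and VAT (431.5 CPM), where the other mice had 85.4 to 105 and 87.0 to 96.5 CPM. Bhlhe40 held 76.3% of the SAT sum and 81.1% of the VAT sum on average, and without it the sums were 28.5 to 43.6 and 27.1 to 48.0 CPM.

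Matrix genes moved in both directions. Of 30 tested collagens and matrix genes on a list of 49, 10 were higher in SAT and 6 in VAT, with a median log2 fold change of -0.12. Dpt (dermatopontin), a small matrix protein of skin, had 3462, 3100, 5200 and 5049 CPM in SAT and 854, 1124, 1230 and 1853 CPM in VAT (log2 fold change -1.75, SE 0.12, adjusted p = 4.99e-08). Fmod (fibromodulin), a proteoglycan of tendon and serosa, had 13.7, 14.5, 10.8 and 5.97 CPM in SAT and 206, 303, 127 and 267 CPM in VAT (log2 fold change 4.23, SE 0.21, adjusted p = 2.39e-09). In neither did the tissues overlap. Col1a1 was higher in SAT with overlap, 1379, 949.6, 943 and 1839 against 1003, 468, 514 and 854 CPM (log2 fold change -0.87, SE 0.11, adjusted p = 3.32e-05), and Col1a2, Col5a1, Col5a2, Col4a2 and Col4a4 went the same way. Thbs1 (thrombospondin) had 6.19, 14.9, 8.33 and 5.97 and 17.0, 61.1, 28.0 and 36.0 CPM (log2 fold change 1.96) and Col12a1 had 9.36, 7.604, 4.07 and 19.0 and 31.9, 30.2, 22.98 and 29.1 CPM (1.69).

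Of 21 tested markers of progenitors and fibroblasts on a list of 30, 9 were higher in VAT and 2 in SAT. Pi16, a mark of the most immature fibroblasts, had 95.9, 125, 49.6 and 278 CPM in SAT and 51.0, 47.2, 36.5 and 50.6 CPM in VAT (log2 fold change -1.33), with overlap. Mgp (matrix Gla protein) had 38.5, 31.1, 26.2 and 35.0 CPM in SAT and 91.1, 119.9, 129.5 and 118 CPM in VAT (log2 fold change 1.83, SE 0.15, adjusted p = 5.56e-07). Clec11a, a growth factor of skeletal stem cells, rose from 2.52 to 12.8 CPM (log2 fold change 2.26), Gdf10 from 43.5 to 129 CPM (1.61), and Dcn (decorin) from 186 to 429 CPM (1.20), each without overlap. Without the mouse in the model, or without mouse 2, the number higher in VAT was 5.

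Markers of lymphocytes were mostly higher in VAT. Of 10 tested B cell markers on a list of 18, 8 were higher in VAT and none in SAT, and their summed level was 14.7 to 27.2 CPM in SAT and 61.6 to 428 CPM in VAT. Ms4a1 (CD20) had 4.30, 3.22, 0.992 and 1.55 CPM in SAT and 124, 68.6, 16.3 and 56.4 CPM in VAT (log2 fold change 4.64, SE 0.20, adjusted p = 3.91e-10). Cd79a, part of the B cell receptor, had 2.40, 3.80, 2.08 and 3.32 CPM in SAT and 102, 53.2, 13.1 and 42.5 CPM in VAT (log2 fold change 3.98, SE 0.31, adjusted p = 2.70e-07). For both genes VAT replicate 1 was the highest and replicate 3 the lowest of the VAT libraries, and all 4 were above SAT. Fcmr (1.24 and 22.8 CPM on average), Pax5 (3.62 and 37.6 CPM) and Ly6d (0.704 and 11.4 CPM) followed, with log2 fold changes of 4.03, 3.23 and 3.81.

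All 3 of the plasma cell markers that passed, of 5 tested and 12 listed, were higher in VAT. Jchain, the joining chain of secreted antibodies, had 8.59, 7.17, 16.3 and 13.1 CPM in SAT and 499.7, 176, 80.9 and 189 CPM in VAT (log2 fold change 4.13, SE 0.39, adjusted p = 2.16e-06). Mzb1 rose from 0.542 to 9.85 CPM (log2 fold change 3.83) and Pou2af1 from 2.26 to 27.9 CPM (3.49). Of 6 tested T and NK cell markers on a list of 26, 4 were higher in VAT and Gzma was higher in SAT. Cd3g, part of the T cell receptor complex, had 2.23, 2.19, 4.26 and 2.43 CPM in SAT and 13.6, 13.8, 7.92 and 13 CPM in VAT (log2 fold change 2.04, SE 0.31, adjusted p = 0.000222). Cd8b1 had 1.496 and 6.6 CPM (log2 fold change 2.09) and Gzmk 0.185 and 2.89 CPM (3.69), with its direction fixed by the filter.

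Several genes that organize lymphoid tissue were measured. The study does not state whether lymph nodes were left in either depot, and their part in the lymphocyte and lymphoid values was not tested. Ccl21a, the chemokine of lymphatic vessels and lymph node stroma, had 0.773, 0.292, 0.0992 and 0.885 CPM in SAT and 51.7, 44.7, 50.1 and 33.6 CPM in VAT (log2 fold change 6.57, SE 0.32, adjusted p = 1.70e-09), with little spread in VAT. It belongs to a family of near-identical copies, among which reads may have been split. Cxcl13, which draws B cells, had 3.09, 2.05, 5.06 and 17.0 CPM in SAT and 181, 144, 21.6 and 98.7 CPM in VAT (log2 fold change 3.98, SE 0.50, adjusted p = 3.76e-05), and its receptor Cxcr5 had 1.55, 0.731, 0.694 and 0.443 and 40.8, 17.7, 8.03 and 11.3 CPM (log2 fold change 4.38, SE 0.29, adjusted p = 5.15e-08). The order of the VAT libraries for Cxcl13 and Cxcr5 was led by replicate 1, with replicate 3 last, as for the B cell genes. Ltb (lymphotoxin beta) rose from 0.954 to 10.8 CPM (log2 fold change 3.54). Of 6 tested markers of lymph node stroma and high endothelium on a list of 16, 5 were higher in VAT, and the filter fixed the direction of Ccl21a and Tnfsf11. Of the 4 above 1 CPM in at least 1 library of both tissues 3 were higher in VAT, and Pdpn (podoplanin) had 7.27 and 24.8 CPM (1.75). Mfge8 was the 1 higher in SAT.

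Of 25 tested chemokines and receptors on a list of 48, 14 were higher in VAT and 3 (Ccl7, Ccl8 and Cxcl9) in SAT, Ccl21a being the 1 whose direction the filter fixed. Ccl22 had 1.15 and 5.20 CPM (log2 fold change 2.27), and Cxcr6 and Cxcr3, chemokine receptors of T cells, had values of 1.93 and 1.76. The VAT count fell to 7 without the mouse in the model or without mouse 3, to 8 without mouse 2 and to 9 without a filter. Of 9 tested MHC class II genes on a list of 11, 4 were higher in VAT, among them H2-Ob (0.501 and 3.28 CPM, log2 fold change 2.62, not called without mouse 2), with Cd74, H2-Ab1 and H2-Eb1 between 0.50 and 0.69.

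Of 16 tested macrophage markers on a list of 20, 8 were higher in VAT and none in SAT, with a median log2 fold change of 0.60 and a summed level of 1598 to 2312 CPM in SAT and 2852 to 3752 CPM in VAT. Csf1r, the receptor that macrophages need to live, had 262, 302, 246 and 269 CPM in SAT and 479, 493, 414 and 451 CPM in VAT (log2 fold change 0.77, SE 0.09, adjusted p = 2.29e-05). Lyz2 (lysozyme) had 848 ± 145 and 1498 ± 259 CPM (log2 fold change 0.82) and Mrc1 (CD206) had 383 ± 53.7 and 526 ± 29.1 CPM (0.47). Vsig4, a complement receptor of resident macrophages, had 3.61, 5.12, 2.68 and 6.42 and 14.3, 21.2, 9.60 and 13 CPM (log2 fold change 1.72, SE 0.24, adjusted p = 9.08e-05). None of these 4 overlapped. Of 5 tested markers of mast cells, eosinophils and group 2 innate lymphoid cells on a list of 21, the mast cell proteases Mcpt4 (25.3, 28.1, 29.1 and 41.4 CPM in SAT, 6.12, 14.6, 12.3 and 15.8 CPM in VAT, log2 fold change -1.30) and Cma1 (-1.08) were higher in SAT, and Ear2 was higher in VAT.

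Of 22 tested complement genes on a list of 29, 10 were higher in VAT and 1 in SAT, with a median log2 fold change of 0.64 and a summed level of 1630 to 2177 CPM in SAT and 4155 to 5564 CPM in VAT, of which C3 held 22.3% and 52.1% on average. C3, the central component, had 311, 457, 322 and 609.8 CPM in SAT and 2770, 2978, 2045 and 2319 CPM in VAT (log2 fold change 2.62, SE 0.15, adjusted p = 9.91e-09). C7, a part of the membrane attack complex, had 21.9, 23.5, 10.1 and 15.7 CPM in SAT and 94.5, 114, 80.9 and 67.8 CPM in VAT (log2 fold change 2.38, SE 0.16, adjusted p = 5.15e-08). C6, its partner in that complex, was the 1 member higher in SAT, with 71.0, 41.5, 40.7 and 56.2 CPM in SAT and 10.2, 25.4, 11.4 and 12.8 CPM in VAT (log2 fold change -1.73, SE 0.23, adjusted p = 8.27e-05). Clu (clusterin), an inhibitor of the complex, had 3.13 and 23.1 CPM on average (log2 fold change 3.08, and 1.62 with counts summed over the gene). C3 is also on the mesothelium list.

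Of 9 tested markers of lymphatic endothelium on a list of 14, 7 were higher in VAT and none in SAT, with a median log2 fold change of 1.45 and a summed level of 115 to 179 CPM in SAT and 348 to 462 CPM in VAT, of which Lyve1 held 59.0% and 58.1% on average. For 3 of the 7, Ccl21a, Foxc2 and Mmrn1, no SAT library exceeded 1 CPM, and the filter fixed their direction. Of the 6 members above 1 CPM in at least 1 library of both tissues 4 were higher in VAT. Lyve1, the hyaluronan receptor of lymphatic vessels and some macrophages, had 67.3, 97.98, 65.8 and 124 CPM in SAT and 239, 292, 216 and 194 CPM in VAT (log2 fold change 1.44, SE 0.16, adjusted p = 9.94e-06), and Foxc2, a factor of lymphatic valves, had 0.0992 to 0.258 and 1.38 to 4.76 CPM (log2 fold change 4.10). Of 15 tested markers of blood endothelium on a list of 22, 1 was higher in VAT and 3 in SAT. The 1 was Vwf (von Willebrand factor), at 7.13, 6.43, 4.76 and 2.65 CPM in SAT and 22.4, 13.2, 20.2 and 17.3 CPM in VAT (log2 fold change 1.80, SE 0.24, adjusted p = 8.54e-05). Of 12 tested markers of smooth muscle and pericytes on a list of 20, 4 were higher in VAT and 3 in SAT. Rgs5, of pericytes, had 1537 ± 313 and 685 ± 119 CPM (log2 fold change -1.15), Des (desmin) had 28.8 ± 3.29 and 64.4 ± 17.1 CPM (1.15), and Actg2, of gut smooth muscle, had 0.859, 1.32, 0 and 0 CPM in SAT and 4.76, 71.5, 16.1 and 3.57 CPM in VAT (5.20), most of it in VAT replicate 2. The beta-globin gene Hbb-bs, a mark of red blood cells, had 284, 250.1, 229 and 263 CPM in SAT and 120.3, 109.2, 88.9 and 149 CPM in VAT (log2 fold change -1.15, SE 0.11, adjusted p = 2.51e-06), and 2 of 5 tested red cell markers of 7 listed were higher in SAT. The other was Hbb-bt, a near-identical copy between which reads may have been split.

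Markers of neighbouring organs were looked at in every library, since mesentery borders gut and pancreas and inguinal fat borders skin, muscle and mammary tissue. Of 24 intestinal epithelium markers 7 were tested and 4 were higher in VAT, and their summed level was 21.2 to 32.0 CPM in SAT, but 22.4, 103, 19.97 and 104 CPM in the VAT libraries. Epcam had 0, 0, 0.297 and 0.221 CPM in SAT and 1.36, 10.2, 0.558 and 2.76 CPM in VAT (log2 fold change 4.26), Zg16 had 1.36, 5.60, 0.335 and 4.60 CPM in VAT (log2 fold change 2.87) and Slc5a1 had 1.36, 1.31, 0 and 4.83 CPM in VAT and none in SAT, at least 20.7-fold higher over the group. VAT replicates 2 and 4 held most of these counts, and the number of intestinal markers that passed was 0 without mouse 2 or without mouse 4 and 1 without mouse 1. Epcam, Zg16 and Slc5a1 fell below the filter in those 3 fits and were not tested there. They exceeded 1 CPM in no SAT library, so the filter fixed their direction, and of the 4 members seen above it in both tissues 1 was higher in VAT. Of 28 exocrine pancreas markers 3 were tested, and 2, Zg16 and Pnlip, were higher in VAT, both with the direction fixed by the filter. Pnlip had no count in SAT and 3.40, 1.37, 0.112 and 2.07 CPM in VAT (at least 19.2-fold), and Cela1 was higher in SAT, with 74.1 to 149 against 33.99 to 60.3 CPM. Their part in the other results was not tested.

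Of 25 listed skeletal muscle markers 6 were tested, 3 were higher in SAT and 2 in VAT, and the summed level was 41.7 to 113 CPM in SAT and 19.4 to 30.5 CPM in VAT, or 26.8 to 42.1 and 17.2 to 28.7 CPM without Trdn. Trdn (triadin), of the muscle calcium release complex, had 65.8, 13.4, 30.1 and 30.1 CPM in SAT and 1.36, 1.43, 2.12 and 2.53 CPM in VAT (log2 fold change -3.74, SE 0.24, adjusted p = 3.55e-08), and Casq1 (calsequestrin) had 24.3, 11.1, 6.94 and 22.8 and 1.36, 2.80, 2.34 and 2.65 CPM (log2 fold change -2.42, SE 0.30, adjusted p = 3.32e-05). Actn3 and Mybpc2, of the fast-fibre contractile apparatus, were the 2 called higher in VAT, at 0.0992 to 0.344 against 3.79 to 5.85 CPM and 0 to 0.146 against 2.12 to 8.27 CPM. For Mybpc2, with 1 count in SAT, the pooled ratio was 188-fold (95% counting interval 33.4 to 7460). Neither exceeded 1 CPM in a SAT library, so the filter fixed their direction, and of the 4 members above 1 CPM in at least 1 library of both tissues 3 were higher in SAT and 0 in VAT.

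Of 12 tested markers of neurons and Schwann cells on a list of 25, 4 were higher in SAT and 3 in VAT. Ret, the receptor of GDNF-family ligands, had 69.6, 36.4, 59.9 and 80.5 CPM in SAT and 16.3, 10.3, 5.69 and 13.7 CPM in VAT (log2 fold change -2.47, SE 0.21, adjusted p = 7.90e-07). The neurofilament genes Nefm and Nefl were higher in SAT (log2 fold change -2.90 and -2.29), but SAT replicate 1 held most of their counts, 9.62, 1.17, 0.496 and 1.99 and 13.1, 1.90, 1.29 and 1.55 CPM over the SAT libraries. Nefl was not called without mouse 1 or mouse 2, and Nefm exceeded 1 CPM in no VAT library, so the filter fixed its direction. Of 6 tested keratinocyte and skin markers on a list of 21, Perp (0.454 and 7.56 CPM, log2 fold change 3.90) and Dsp (no count in SAT, 0.446 to 3.17 CPM in VAT, at least 18.8-fold) were higher in VAT and Dmkn (9.64 and 2.94 CPM, -1.52) in SAT. Of 5 tested mammary and glandular markers on a list of 24, Krt7 (0.316 and 24.4 CPM, log2 fold change 6.33), Krt8, Krt18 and Epcam, which mesothelium or gut also carry, were higher in VAT, and Oxtr, the oxytocin receptor (8.93 and 3.81 CPM, -1.63), in SAT. The Oxtr values of the tissues overlapped, and it was not called without the mouse in the model, without mouse 3 or without mouse 4. The filter fixed the direction of Dsp, Krt7, Krt8, Krt18 and Epcam.

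**Figure D4:**
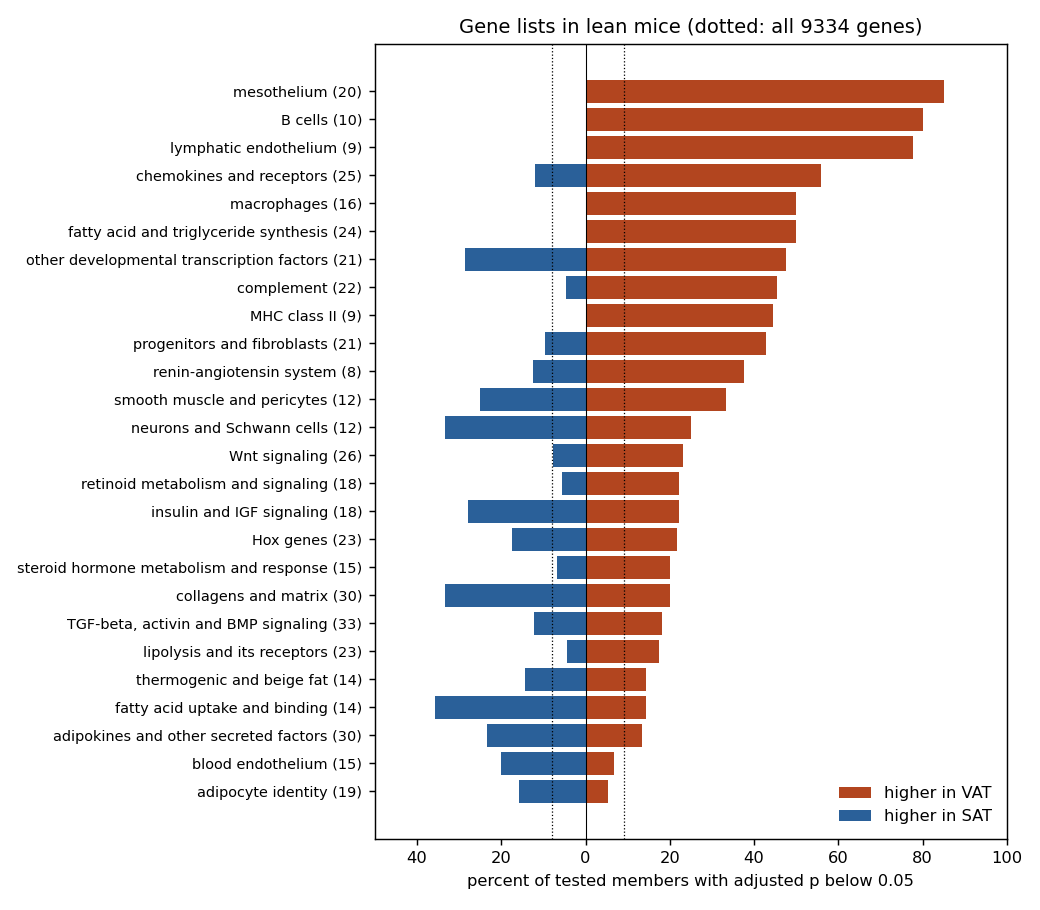
Bars give the percent of tested members of each list with an adjusted p below 0.05, to the right for higher in VAT and to the left for higher in SAT, for the lists with at least 8 tested members (number in brackets). Dotted lines mark 9.24% and 8.07% of all 9334 genes, and bars include members above 1 CPM in 1 tissue only, whose direction the filter fixed: to the right 12 of the 17 called for mesothelium, 7 of 10 for developmental factors, 3 of 7 for lymphatic endothelium, 2 of 5 for Hox genes, 2 of 6 for Wnt, 1 of 14 for chemokines and 1 of 4 for insulin and IGF, and to the left 2 of 6 for developmental factors, 1 of 4 for neurons and 1 of 1 for steroid genes.

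Most of the lean depot differences were present in obese mice too, whose 8 libraries were not used to call them. The obese values come from a fit of all 16 libraries, which share 1 estimate of the spread. Of the 422 entries higher in VAT of lean mice, 410 had the same sign in obese mice, 350 also with an adjusted p below 0.05, and 306 passed both limits again. Of the 198 entries higher in SAT, 191 had the same sign, 156 passed at any size and 119 passed both limits. Among all 13288 entries tested in the fit of 16 libraries, 15.9% were higher in VAT and 13.5% higher in SAT of obese mice. The median log2 fold change of the VAT entries was 2.55 in lean and 2.28 in obese mice, and that of the SAT entries was -2.24 and -1.82.

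The difference of the depot differences itself, obese minus lean, had an adjusted p below 0.05 for 27 of the 422 and 14 of the 198 entries, 41 in all, against 2.17% of the 13288 entries. It ran against the lean direction for 21 of the 27 and for all 14, which include genes whose value crossed 0, such as Hephl1 and Trdn. The entries were called on the same lean libraries, a choice that by itself favours smaller values elsewhere, so nothing is read from that direction. Without the mouse in the model (no replicate block) 18 entries passed.

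Several lipid synthesis genes passed this test. Elovl6 had a log2 fold change of 1.75 in lean and -0.52 in obese mice, a difference of -2.26 (SE 0.16, adjusted p = 6.24e-09). For Acaca the values were 4.82 and 0.56 (difference -4.29, adjusted p = 0.00136), for Acly 2.00 and -0.12 (difference -2.12, 0.000793), and for Me1 0.87 and -1.40 (difference -2.26, 1.24e-06). Fasn (difference -1.33) and Acss2 (-1.57) moved likewise, but Thrsp had 1.34 and 1.34 in the 2 diets, a difference of 0.02 (adjusted p = 0.98). Pcx, the pyruvate carboxylase that feeds citrate, had 2.79 and -0.84 (difference -3.62, adjusted p = 0.000105) for 1 of its 3 transcripts, and its summed counts gave 0.84 in lean mice. Of the 5 called genes with the smallest adjusted p and a lower value in obese mice, the others were Hephl1, a copper-dependent ferroxidase (2.69 and -1.56), Enpep (2.93 and 0.74) and Sorl1, a sorting receptor (2.60 and 0.21).

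Genes with a higher VAT-over-SAT value in obese mice were led by Trdn, which went from -3.74 in lean to 1.18 in obese mice (difference 4.93, SE 0.47, adjusted p = 1.24e-06). Cyp2f2 had -3.33 and -1.14 (difference 2.19), Tph2, a tryptophan hydroxylase, -2.92 and -1.10 (difference 1.83), and Sfrp5 -1.83 and -0.78 (difference 1.07). In lean mice Tph2 had 45.6, 22.4, 81.7 and 292 CPM in SAT and 8.16, 6.66, 9.15 and 20.6 CPM in VAT. The value of Aldh1a2 grew from 3.76 to 5.21 (difference 1.46, adjusted p = 0.00104). Upk3b, Hoxc10, Plppr4 and Lep had values of 10.91, -3.75, -3.85 and -1.58 in obese mice, with adjusted p of the difference between 0.36 and 0.997. A p above the threshold does not show that these values were equal in the diets.

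**Figure D5:**
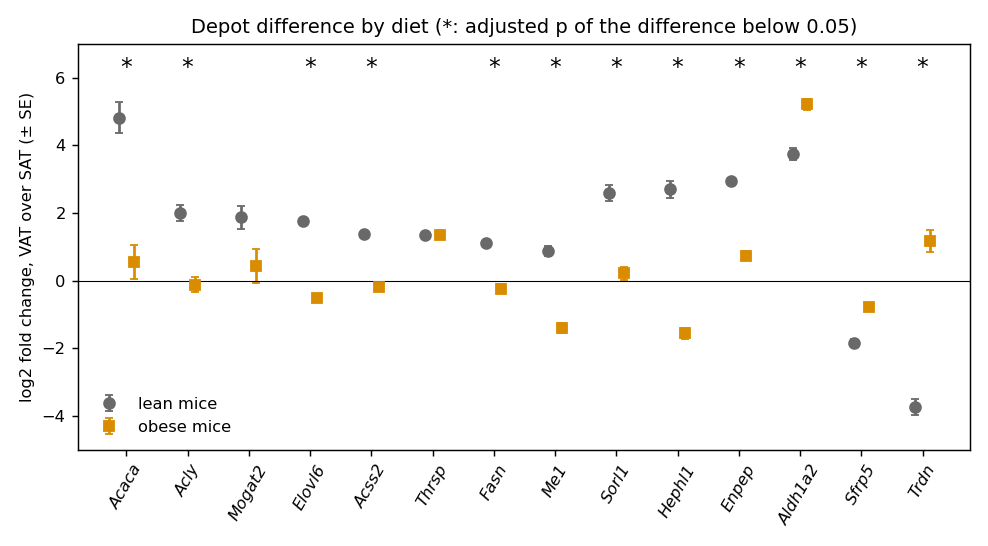
Points give the log2 fold change of VAT over SAT with its SE for 14 genes in lean mice (circles) and obese mice (squares), and an asterisk marks an adjusted p of the difference below 0.05. Acaca falls from 4.82 to 0.56, Elovl6 from 1.75 to -0.52 and Trdn turns from -3.74 to 1.18, while Thrsp stays at 1.34.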

How the data were processed

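Libraries were poly(A)-selected, directional RNA-seq of SAT and VAT. Per the submitters' processing notes the authors used FastQC 0.11.9, Trim Galore 0.6.6, HISAT2 2.2.0, SAMtools 1.11, bedtools 2.29.2, HTSeq 0.13.5 and edgeR 3.34.0 with mouse build GRCm39 and RefSeq annotation 109. The strand setting and the handling of reads shared by transcripts are not given in the sources used here. The deposited table holds raw counts and CPM for 130343 RefSeq transcripts in 16 libraries, 81.96% with a gene symbol. The deposited CPM equalled the counts scaled to their total within 4.948e-10, and the counts alone were used. Reads shared by transcripts of a gene may be missing from the counts. Genes with several transcripts were also summed, which adds up the reads that were counted and cannot recover missing ones.

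Lean libraries were fitted with edgeR 4.0.16 (R 4.3.3, glmQLFit with legacy=TRUE, TMM), with mouse as a block, for entries with a CPM above 1 in at least 3 libraries. The biological coefficient of variation was 0.169. SE is the log2 fold change divided by the root of F. Entries were called at an adjusted p below 0.05 and a log2 fold change beyond 1.5. The pairing is by animal. Deviations of SAT and VAT from their group means correlated at 0.0887, 0.195, 0.204 and 0.00603 for the same mouse and at -0.138 to 0.112 for different mice. Obese minus lean was the interaction in a fit of all 16 libraries. DESeq2 1.42.0, limma 3.58.1 (voom), other filters and scalings, sums per gene and fits without each mouse were alternatives. On simulated counts edgeR recovered 91% of 200 entries changed by 2 on the log2 scale among 11737, with 3.19% false calls, and 77% among 13288 for the interaction, with 4.35%. No replicate pair agreed within sampling noise.

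Genes named are the 12 called in each direction with the largest change, a mean of at least 5 CPM and no overlap, the 5 with the smallest adjusted p, list members with the largest changes, textbook depot genes, and the 5 in each direction whose difference between diets had the smallest adjusted p. Some genes that these rules name are not reported here. Other named genes, among them list members under the limit of 1.5, were chosen after their values were seen. The comparison, the lists and the genes were chosen with earlier results of these data known. For lists, 1 transcript stood for each gene. Gene positions are from GENCODE vM39. Tables and plots used Python 3.11.15, pandas 2.3.3, scipy 1.17.1 and matplotlib 3.10.9.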

Additional observations from a re-analysis of the deposited data

Results flagged for a closer look

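Among 318 sets of 4 lean libraries, 31 had a highest or lowest library whose gap to its neighbour took a larger part of the whole range than Dixon's 95% limit, where chance gives about 1 in 20. In 5 of the 31 (Crb2, Mybpc2 and Rspo1 in SAT, En1 and Tcerg1l in VAT) the other 3 libraries had no count, so the gap equals the range and the limit had to be passed. The other 26 are to be set against that share, and 14 sets with no count in any library could not pass. In SAT replicate 1 the values that stood apart were those of Adra2a (3.18 CPM), Crb2 (0.0859 CPM), Nefl (13.1 CPM), Nefm (9.62 CPM) and Rspo1 (0.0859 CPM). In SAT replicate 2 the values that stood apart were those of Acaca (1.90 CPM) and Mybpc2 (0.146 CPM). In SAT replicate 3 the values that stood apart were those of Aldh1a1 (4.96 CPM), Cd3g (4.26 CPM), Fabp4 (38190 CPM) and Hoxa9 (4.07 CPM). In SAT replicate 4 the values that stood apart were those of Emx2 (12.4 CPM), Hoxa5 (7.74 CPM), Igfbp5 (4301 CPM), Igfbp6 (127 CPM), Mogat2 (3.76 CPM) and Mrgprg (49.1 CPM). In VAT replicate 1 the values that stood apart were those of Acly (78.2 CPM), Gm20467 (12.2 CPM), Gzmk (6.80 CPM), Hoxb3 (0.68 CPM), Hoxb6 (8.16 CPM), Hoxc8 (8.16 CPM), Npr2 (23.1 CPM) and Pcx (8.84 CPM). In VAT replicate 2 the values that stood apart were those of C6 (25.4 CPM) and Gm52902 (1.31 CPM). In VAT replicate 3 the values that stood apart were those of Cd3g (7.92 CPM) and Cyp2f2 (26.7 CPM). In VAT replicate 4 the values that stood apart were those of En1 (0.115 CPM) and Tcerg1l (0.345 CPM).

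The depot difference was tested between the diets by the interaction term, and 26 named genes passed at an adjusted p below 0.05. The value in brackets is the log2 fold change of VAT over SAT in obese mice minus that in lean mice. It was below 0 for Acaca (-4.29), Acly (-2.12), Acss2 (-1.57), Elovl6 (-2.26), Enpep (-2.18), Fasn (-1.33), Hephl1 (-4.25), Me1 (-2.26), Pcx (-3.62), Sorl1 (-2.38), Thbs1 (-1.66), Vsig4 (-1.32) and Vwf (-1.32). It was above 0 for Agt (2.40), Aldh1a2 (1.46), Cyp2f2 (2.19), Dpt (0.95), Gm39741 (1.52), Jchain (2.19), Mrgprg (3.25), Otop1 (1.26), Pax5 (1.74), Pou2af1 (1.84), Sfrp5 (1.07), Tph2 (1.83) and Trdn (4.93).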

How the results depend on the processing

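Among 159 named genes 149 passed in the reported fit, and 126 of these were tested and passed in each of 13 alternatives. Another 5 (Dsp, En1, Epcam, Igfbp2 and Pnlip) passed where tested but fell below the filter in 1 or 4 of them. The 18 others failed in at least 1: Actg2, Foxf2, Gata5, Gdf6, H2-Ob, Hoxa9, Hoxb3, Hoxb5, Hoxb7, Inhbb, Irx5, Mrc1, Nefl, Nefm, Npr2, Oxtr, Slc5a1 and Zg16. The cause was not tested. In all 12 of the 149 were untested in some alternative with another filter or without 1 mouse. Entries called higher in VAT numbered 346 to 526 and those higher in SAT 168 to 235 with another filter, scaling, tool or sample set, and 290 to 382 and 140 to 188 when 1 mouse was left out. At any size the numbers without 1 mouse were 520 to 959 and 389 to 821. Without the replicate block 411 and 202 entries were called, 392 and 180 of them shared with the reported calls, and of the 41 that differed between the diets 18 passed. With 1 mouse left out that number was 29 to 51. Some named genes that did not pass in the reported fit passed in an alternative. They numbered 1 without a filter, 2 with legacy=FALSE, 3 with limma voom and 1, Hoxc8, with summed counts. They numbered 2 with all 16 libraries fitted together and 2 without mouse 1. The sign reversed for 2 genes that did not pass. The log2 fold change of Aldh1a1 was 0.699 with counts summed per gene and between -0.359 and 0.463 without 1 mouse. The log2 fold change of Rbp4 was between -0.308 and 0.733 without 1 mouse. Summed counts moved Pcx from 2.79 to 0.84, Myl4 from -4.11 to -1.70 and Igf1 from -1.36 to -0.49. VAT replicate 1, the shallowest library, limits what can be said of genes under 2.04 CPM there, the level of 3 counts.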
